A study of Mus musculus with 12 samples.

Results

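Complement transcripts were followed in macrophages sorted from mouse bone marrow. The set holds 9 genes of 18467 in the table, taken by symbol: the C1q chains C1qa, C1qb and C1qc, the central components C3 and C4b, properdin (Cfp) and factor B (Cfb) of the alternative pathway, and the anaphylatoxin receptors C3ar1 and C5ar1. All 9 had a row and all 9 passed the low-count filter. Each of 4 groups held 3 libraries, described as coming from different mice. The general sort took live marrow cells positive for F4/80 together with CD11b, whereas the niche sort required CCR3, CD163 and VCAM1. Normal marrow came from healthy control mice. Metastatic marrow came from female Albino B6 mice that received E0771 breast cancer cells, a mouse line, through the caudal artery at 8 weeks of age. No genotype other than the strain was given, and for control mice no treatment, sex or age was stated separately. The titles call the cells of both sorts general macrophages, so the sorting antigens were taken to define the populations.

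Complement is a cascade of plasma and locally made proteins that tags and clears microbes, dying cells and debris. C1q, built from A, B and C chains in equal number, binds immune complexes and apoptotic cells and starts the classical pathway, in which C4 and then C3 are cleaved. Factor B and properdin drive and stabilise the alternative pathway, and the released fragments C3a and C5a act on their receptors on myeloid cells. Most plasma complement is made by the liver, but C1q is made largely by macrophages and dendritic cells, and properdin by myeloid cells.

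Libraries held between 13687945 and 30332417 counts, so that 3 counts correspond to between 0.109 and 0.243 CPM (counts per 1000000, scaled by trimmed mean of M values). Replicates were noisy, with a common biological coefficient of variation of 1.30. Summed CPM of 8 macrophage markers, Cd163 of the niche sort among them, ranged from 175 to 379 in the general and from 1411 to 3884 in the niche libraries. Neutrophil markers (8 of 8 detected) summed to between 12434 and 19616 CPM in general and between 8720 and 10852 CPM in niche libraries, so neutrophil transcripts exceeded macrophage markers in every library of either sort. Monocyte markers (6 genes) summed to between 6224 and 6640 CPM in general and between 1348 and 1991 CPM in niche libraries. Erythroid markers (8 genes) summed to between 12.1 and 106 CPM in general and between 422 and 1282 CPM in niche libraries, and B and plasma cell markers (8 genes) to between 96.4 and 229 against between 922 and 3850 CPM. Of 4 tumour epithelial markers, Krt8 was at or under 3 counts in every library and Epcam exceeded 1 CPM in 2 niche libraries from normal marrow, at 26.1 and 7.01 CPM. Stromal and endothelial markers summed to 4.80 to 25.2 CPM in general and 14.1 to 83.3 CPM in niche libraries. Eosinophil markers summed to 108 to 240 CPM in general and 7.74 to 128 CPM in niche libraries. The part of all these other transcripts in the results below, those of C4b included, was not tested.

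**Figure D1:**
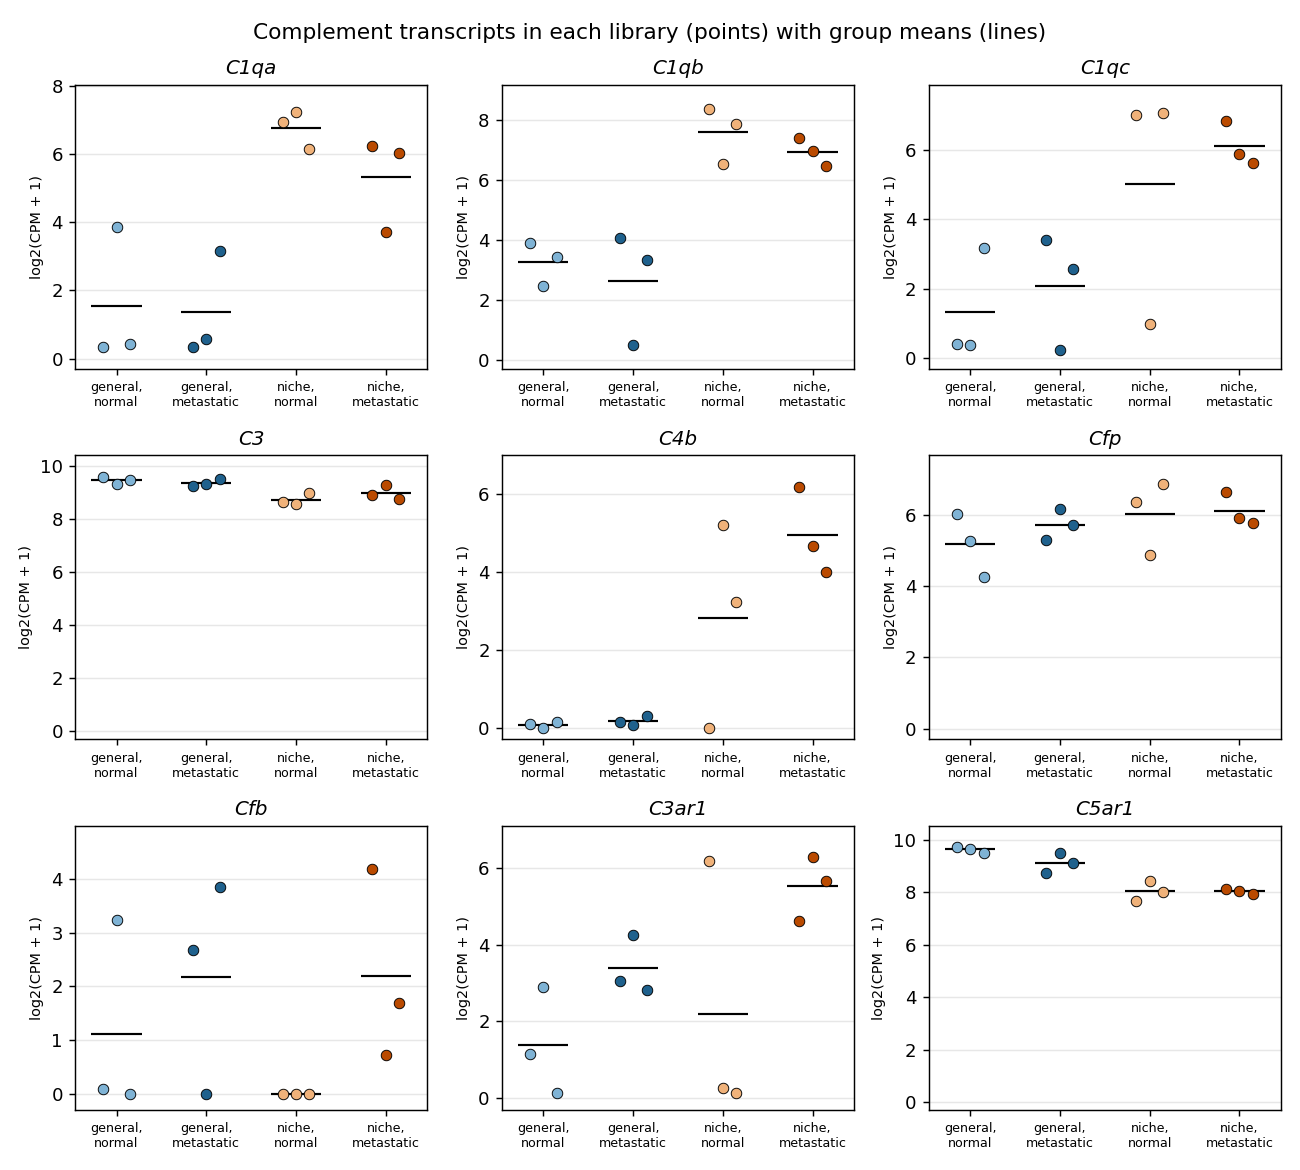
Each panel plots 1 complement transcript, with log2(CPM + 1) on the vertical axis and the 4 groups on the horizontal axis; points are libraries (3 per group) and lines are means of the plotted values. C1qb is higher in every niche library (88.0 to 329 CPM) than in any general library (0.407 to 15.5 CPM), and C5ar1 is lower in every niche library (202 to 346 CPM) than in any general library (427 to 851 CPM).

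Of the 3 C1q chains, C1qb was higher in niche than in general macrophages in both marrow states, whereas edgeR did not call C1qa or C1qc, whose means were higher in niche macrophages, in either state alone. These calls depended on the tool: DESeq2 called all 3 chains in both states, and limma-voom called none of them in either. C1qb was at 13.7, 4.45 and 9.89 CPM in general macrophages from normal marrow and at 329, 91.8 and 230 CPM in niche macrophages (libraries A to C). Every niche library lay above every general library, and the difference was 23.2-fold, with the log2 fold change 4.53 ± 0.88 (SE) and an edgeR adjusted p of 0.0067. In metastatic marrow C1qb was at 15.5, 0.407 and 9.15 CPM in the general and at 167, 123 and 88.0 CPM in the niche libraries. The libraries again did not overlap, with the log2 fold change 3.91 ± 0.85 (SE) and an edgeR adjusted p of 0.0297. In bulk libraries, fewer cells of a type and less RNA per cell cannot be told apart. Of the 8 macrophage markers, 6 were called higher in niche macrophages of normal marrow and 5 in those of metastatic marrow, and the part of that difference in the C1q values was not tested. The call of C1qb in normal marrow was kept in 12 of 12 fits that left out a library. In metastatic marrow it was lost without general metastatic replicate 3 (edgeR adjusted p = 0.133), niche metastatic replicate 1 (0.127) or niche metastatic replicate 2 (0.0736). It was also lost with only the 6 libraries of that comparison (0.103) and in the fit of 9 libraries in 3 groups with no replicate block (0.0577).

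C1qa was at 0.275, 13.6 and 0.350 CPM in the general libraries of normal marrow and at 123, 149 and 70.5 CPM in the niche libraries. The groups did not overlap, and the log2 fold change of 4.59 ± 1.48 (SE) missed the threshold (edgeR adjusted p = 0.125). Without general normal replicate 2 the log2 fold change was 8.48. In metastatic marrow C1qa was at 0.255, 0.497 and 7.98 CPM in the general and at 74.9, 12.02 and 64.1 CPM in the niche libraries, again without overlap (log2 fold change 4.11 ± 1.44 SE, edgeR adjusted p = 0.404). Without general metastatic replicate 3 this log2 fold change was 7.04. C1qc was at 0.343, 0.297 and 8.04 CPM in general macrophages from normal marrow, and at 127, 0.994 and 134 CPM in niche libraries A to C. Niche library B, with 20 counts of C1qc, fell within the general range while the other 2 niche libraries lay far above it (log2 fold change 4.90 ± 1.59 SE, edgeR adjusted p = 0.129). In metastatic marrow C1qc was at 9.60, 0.181 and 4.98 CPM in the general and at 113, 58.0 and 48.7 CPM in the niche libraries, with no overlap (log2 fold change 3.89 ± 1.52 SE, edgeR adjusted p = 0.491). In normal marrow the adjusted p-values of C1qa, C1qb and C1qc were 0.00236, 5.71e-07 and 0.00206 by DESeq2 and 0.0801, 0.134 and 0.507 by limma-voom. In metastatic marrow they were 0.0201, 4.79e-05 and 0.0496 by DESeq2 and 0.150, 0.127 and 0.286 by limma-voom. Leaving out 1 library brought C1qa past the edgeR threshold in normal marrow in 1 of 12 fits and C1qc in 2 of 12. The C1qc log2 fold change there was 8.07 without general normal replicate 3.

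The 3 chain genes lie side by side on the reverse strand of chromosome 4 in GENCODE M21 (GRCm38, the assembly called mm10 in the submitters' processing notes): C1qb at 136880129 to 136886187, C1qc at 136889804 to 136893065 and C1qa at 136895917 to 136898803. The RefSeq promoter windows (GRCm38.p6, 250 bases before to 50 after the start site) of C1qb and C1qc are shown because C1qb was the chain called by edgeR in both marrow states and C1qc is its neighbour. Capitals mark matches, on either strand, to TGCTGA, the core of the site bound by Maf factors of macrophages, to GAGGAA, the box bound by the myeloid factor PU.1, and to the core of interferon response elements, which is GAAA repeated after 2 bases of any kind. The motifs do not overlap in these windows.
C1qb, chr4:136886151-136886450, reverse strand: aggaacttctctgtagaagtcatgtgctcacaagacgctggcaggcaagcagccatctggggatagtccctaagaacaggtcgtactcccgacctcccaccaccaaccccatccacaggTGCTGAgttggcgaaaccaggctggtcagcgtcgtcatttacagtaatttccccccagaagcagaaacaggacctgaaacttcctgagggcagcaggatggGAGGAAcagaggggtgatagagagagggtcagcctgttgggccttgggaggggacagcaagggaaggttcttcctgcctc
C1qc, chr4:136892865-136893164, reverse strand: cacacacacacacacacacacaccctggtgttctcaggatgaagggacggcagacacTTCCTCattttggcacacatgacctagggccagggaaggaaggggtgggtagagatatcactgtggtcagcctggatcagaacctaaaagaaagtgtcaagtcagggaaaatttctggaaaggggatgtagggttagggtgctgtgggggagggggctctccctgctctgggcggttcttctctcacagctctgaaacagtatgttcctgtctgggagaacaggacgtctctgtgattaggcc
The C1qb window held TGCTGA starting at position -131 and GAGGAA at position -30 from the start site, and the C1qc window held GAGGAA, on the opposite strand, at position -193. Neither window held the interferon core. Of 32851 windows of the same length, 19.5% held TGCTGA, 28.3% held GAGGAA and 3.44% held the interferon core. These matches are letters in a sequence and show no binding.

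**Figure D2:**
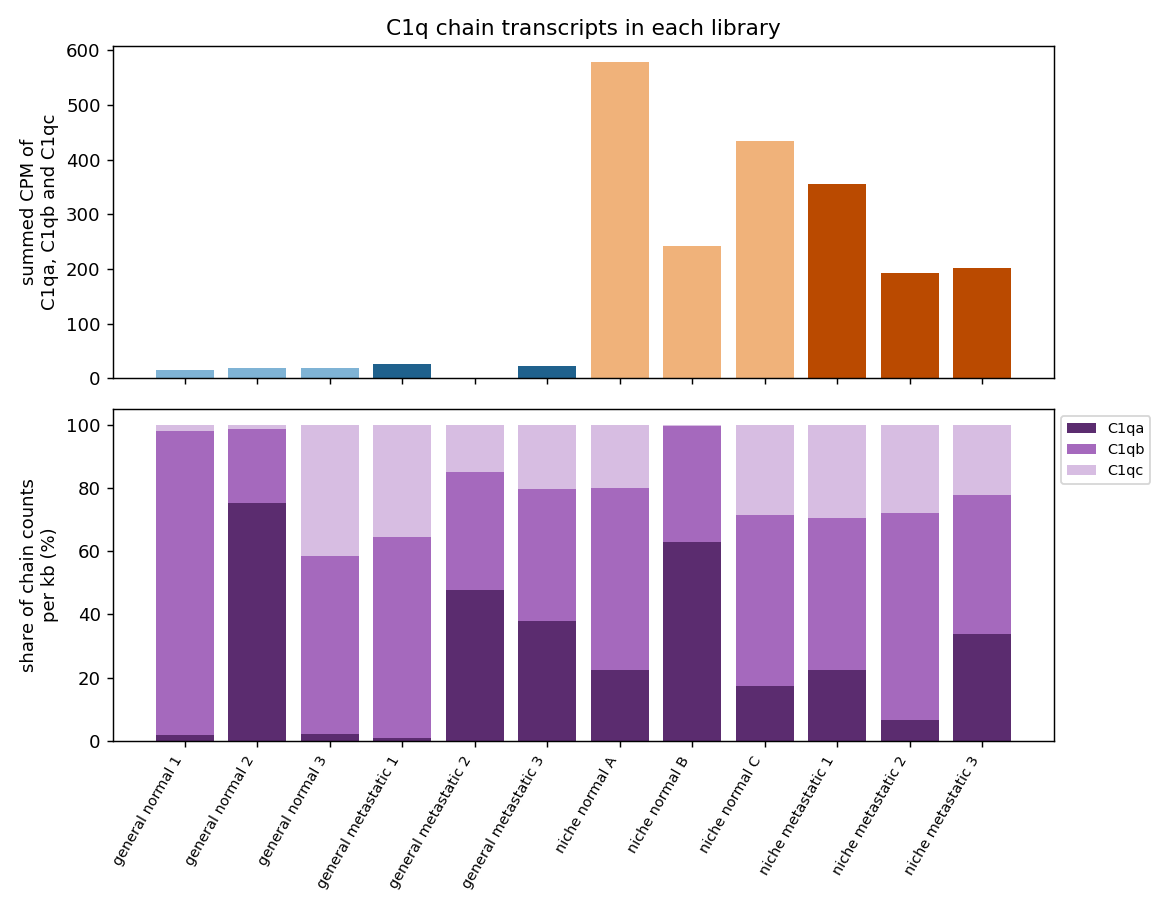
The upper bars give the summed CPM of the 3 C1q chain transcripts in each of 12 libraries and the lower bars each chain's share, in percent, of the chain counts per kb of transcript. The sums run from 1.08 to 25.4 CPM in general and from 193 to 579 CPM in niche libraries, and the C1qc share of niche normal library B is 0.361%.

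In normal marrow the chains summed to 17.0 ± 2.28 CPM in the general and 418 ± 169 CPM in the niche libraries (SD, n = 3 each). In metastatic marrow the sums were 16.2 ± 13.2 and 250 ± 91.3 CPM (SD, n = 3 each). The proportions of the chains varied between libraries. Per kb of transcript, C1qb held the largest share in 5 of 6 niche libraries, between 44.2% and 65.4%. In niche normal library B it held 36.9%, with 62.8% for C1qa and 0.361% for C1qc. The log2 ratio of C1qc to C1qb per kb lay between -1.52 and -0.71 in the other 5 niche libraries and at -6.67 in library B. That of C1qa to C1qb ran from -3.29 in niche metastatic replicate 2 to 0.77 in niche normal library B. The general libraries had between 24 and 696 counts over the 3 chains, and in 2 of them more than 75% of the chain counts per kb came from 1 chain. On the log2 scale, with 2 counts added, the pooled standard deviation within groups was 2.06 for C1qa, 1.49 for C1qb and 2.73 for C1qc, against a median of 2.06 over the 12882 tested genes and 0.40 among those above 100 CPM.

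Of the central components, C4b was at or near the floor in general and detected in most niche libraries, and C3 was abundant in every library. C4b encodes mouse C4, the component cleaved after C1. It had 1, 0 and 2 counts in general macrophages from normal marrow and 0, 722 and 166 counts in niche libraries A to C, equal to 0, 35.9 and 8.33 CPM. The ratio of the summed counts was 291 (95% interval 99.2 to 1413, exact, for counting error only), but niche library A had no count, which allows up to 0.243 CPM, and the groups overlapped. In metastatic marrow C4b had 3, 1 and 6 counts in general macrophages and was at 72.0, 24.5 and 14.9 CPM in niche macrophages, without overlap. Neither difference was called (edgeR adjusted p = 0.113 and 0.232), whereas limma-voom called the difference in metastatic marrow (adjusted p = 0.0313) and DESeq2 both (adjusted p = 0.000168 and 3.07e-05). EdgeR called C4b in normal marrow in 1 of 12 fits, that without niche library A (adjusted p = 0.0292), and in metastatic marrow with only the 6 libraries of that comparison (adjusted p = 0.0221). C4b has a near-identical neighbour, C4a, between which counts could be split. C4a had 43 counts in general metastatic replicate 3 and 0 in the other 11 libraries.

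C3, the protein on which all complement pathways converge, was at 777, 638 and 713 CPM in the general libraries of normal marrow and at 397, 382 and 510 CPM in the niche libraries. Every niche library lay below every general library, a log2 fold change of -0.72 ± 0.23 (SE) that missed the threshold (edgeR adjusted p = 0.113). DESeq2 called it (adjusted p = 0.0102), as did the edgeR fits without general metastatic replicate 3 (adjusted p = 0.0465) and with at least 10 counts required in every library (adjusted p = 0.0180). In metastatic marrow C3 was at 605, 646 and 731 CPM in the general and at 483, 626 and 434 CPM in the niche libraries, and niche replicate 2 fell within the general range (log2 fold change -0.36 ± 0.23 SE, edgeR adjusted p = 0.808). C3 had the smallest spread of the set, with a pooled log2 standard deviation of 0.20. Neutrophil and monocyte markers, given above, were also lower in the niche libraries, and their part in the C3 values was not tested.

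Alternative pathway transcripts overlapped between the sorts. Cfp, which encodes properdin, was detected in all 12 libraries, at 65.0, 37.3 and 18.2 CPM in the general libraries of normal marrow and at 81.5, 28.2 and 116 CPM in the niche libraries. Libraries of metastatic marrow had it at 38.5, 70.5 and 51.3 CPM in the general and at 98.7, 59.1 and 53.6 CPM in the niche libraries. The groups overlapped in both states, with log2 fold changes of 0.91 ± 0.65 and 0.40 ± 0.65 (SE; edgeR adjusted p = 0.482 and 1). Cfb, the zymogen that supplies the protease of the alternative C3 convertase, was sparse. It had 1, 142 and 0 counts in general macrophages from normal marrow and 147, 0 and 370 in those from metastatic marrow. Niche macrophages had no count of Cfb in any of the 3 libraries from normal marrow, which allows up to 0.243, 0.149 and 0.151 CPM, and 342, 15 and 60 counts in metastatic marrow. Only the first of these metastatic libraries exceeded 10 CPM, at 17.3 CPM. Cfb overlaps the annotated gene Gm20547 on the same strand, so its counts may depend on how shared reads were assigned.

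Of the member receptors for C5a and C3a, C5ar1 was called lower in niche macrophages in both marrow states by edgeR and C3ar1 was not called. C5ar2, the other C5a receptor that is no member, was not called either, with log2 fold changes of 0.25 ± 0.89 and 0.31 ± 0.89 (SE) and overlapping groups. C5ar1, the main receptor for C5a on neutrophils and monocytes, was at 851, 815 and 724 CPM in the general libraries of normal marrow and at 202, 346 and 259 CPM in the niche libraries. All niche libraries lay below all general libraries, and C5ar1 was lower by 2.96-fold, with the log2 fold change -1.57 ± 0.26 (SE) and an edgeR adjusted p of 0.00169. Libraries of metastatic marrow had it at 427, 729 and 561 CPM in the general and at 281, 264 and 244 CPM in the niche libraries. The difference there was 2.18-fold, with the log2 fold change -1.12 ± 0.26 (SE) and an edgeR adjusted p of 0.0412. The call in normal marrow was kept in 12 of 12 fits that left out a library, with log2 fold changes between -1.78 and -1.38. That in metastatic marrow was kept in 3 of 12, those without general metastatic replicate 1 (edgeR adjusted p = 0.0323), niche normal library A (0.0244) or niche normal library B (0.0307), and the others gave adjusted p-values between 0.0507 and 0.378. It was also lost with DESeq2's size factors in edgeR (0.0546) and with only the 6 libraries of that comparison (0.0753). Summed neutrophil markers were also lower, at 12434 CPM or more in general and 10852 CPM or less in niche libraries, with 5 of 8 called lower in normal and 2 in metastatic marrow. Of 6 monocyte markers, 5 were called lower in both states. Their part in the lower C5ar1 was not tested.

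The RefSeq promoter window of C5ar1 is shown because C5ar1 was the member called lower. It held TGCTGA at position -17, marked in capitals, and neither of the other motifs.
C5ar1, chr7:16259289-16259588, reverse strand: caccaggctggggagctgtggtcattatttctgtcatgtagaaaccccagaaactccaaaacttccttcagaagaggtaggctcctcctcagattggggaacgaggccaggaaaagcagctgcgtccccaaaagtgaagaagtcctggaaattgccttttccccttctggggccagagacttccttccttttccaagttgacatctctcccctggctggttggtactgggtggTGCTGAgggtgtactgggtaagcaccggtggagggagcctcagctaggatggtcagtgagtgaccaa
TGCTGA thus occurred in the windows of C1qb, called higher, and C5ar1, called lower, and also in those of C3 and C3ar1.

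C3ar1, the receptor for C3a, was at 1.24, 6.41 and 0.0999 CPM in the general libraries of normal marrow and at 71.3, 0.199 and 0.1004 CPM in the niche libraries, so that a single niche library carried nearly all of its counts. The log2 fold change, 3.20 ± 1.86 (SE) with an edgeR adjusted p of 0.349, turned to -4.04 when niche normal library A was left out. In metastatic marrow C3ar1 was at 7.33, 18.2 and 6.11 CPM in the general and at 23.4, 77.4 and 49.6 CPM in the niche libraries. These libraries did not overlap, though the log2 fold change of 2.25 ± 1.78 (SE) did not pass (edgeR adjusted p = 0.986).

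**Figure D3:**
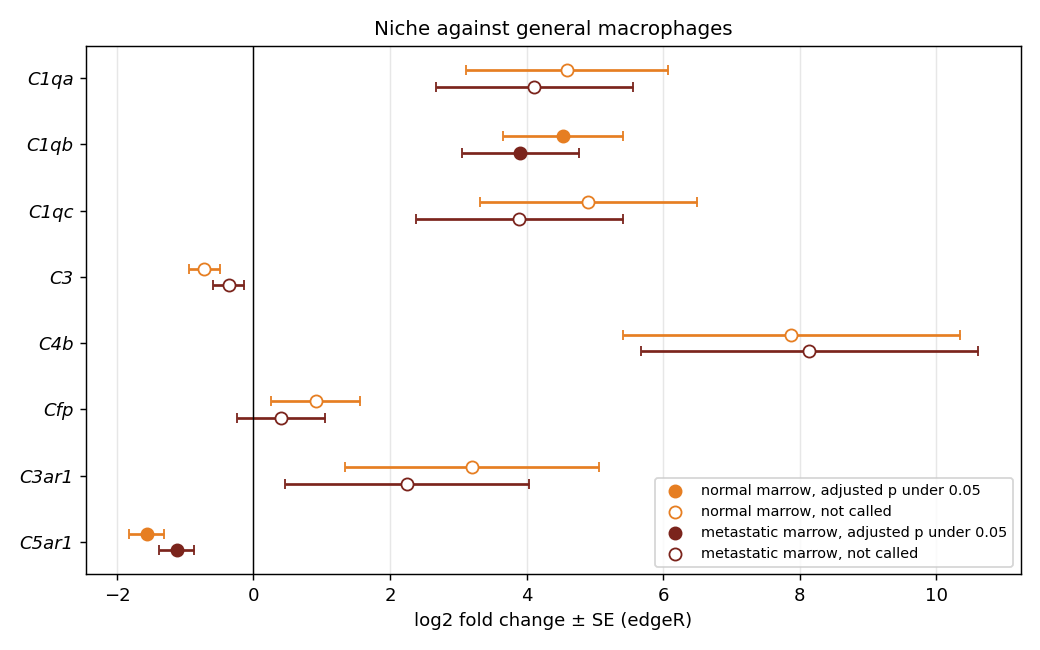
Log2 fold changes of niche against general macrophages with standard errors (horizontal axis) for 8 complement transcripts (vertical axis), in normal and metastatic marrow; filled points passed an edgeR adjusted p of 0.05. Cfb is left out because all 3 niche libraries from normal marrow had no count, and C1qb (4.53 and 3.91) and C5ar1 (-1.57 and -1.12) are the filled points.

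In all, edgeR called 2 of 9 members in normal marrow, where 2.47% of 12882 tested genes were called. C1qb was the 1 called higher (1.5% of all genes) and C5ar1 the 1 called lower (0.97%). In metastatic marrow it called the same 2 members, with 0.831% of all genes called, again C1qb higher (0.574% of all genes) and C5ar1 lower (0.256%). At an unadjusted p under 0.05, edgeR had 7 members in normal marrow (19% of all genes) and 5 in metastatic marrow (8.6%). The libraries of the sorts did not overlap for 2 members higher (C1qa and C1qb) and 2 lower (C3 and C5ar1) in normal marrow, where 10% and 8.78% of all genes did so. In metastatic marrow this held for 5 members higher (C1qa, C1qb, C1qc, C4b and C3ar1) and 1 lower (C5ar1), against 8.34% and 8.85% of all genes. The median log2 fold change was 3.20 over the members and 0.19 over all genes in normal marrow, against 2.25 and 0.04 in metastatic marrow. The median in normal marrow was also 3.20 with Cfb set at its bound. Both member medians are the values of C3ar1, which edgeR did not call. In normal marrow the member median was 0.86 without niche normal library A and 0.89 by limma-voom, and in metastatic marrow it lay between 1.79 and 2.89 over the fits that left out a library. With at least 10 counts required in every library only 3 members remained (C3, Cfp and C5ar1), with medians of -0.90 and -0.37. DESeq2 called 6 members in normal marrow, where it called 15.4% of genes, and 5 in metastatic marrow, where it called 4.05%. Limma-voom called C5ar1 in normal marrow (1.44% of genes called) and C4b and C5ar1 in metastatic marrow (1.38%).

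The difference between sorts averaged over both marrow states, a comparison added after the data were examined, uses 6 libraries against 6. Here edgeR called 5 of 9 members, with 4.21% of all genes called, 4 of them higher (2.59% of all genes) and 1 lower (1.62%). At an unadjusted p under 0.05 it had 7 members (18.2% of all genes). DESeq2 called the same 5 and C3 (14.1% of genes called), and limma-voom called 5 members (3.71%), C3 among them but not C1qc (adjusted p = 0.132). C1qb was higher by 4.22 ± 0.61 on the log2 scale (SE; edgeR adjusted p = 0.000202) and C5ar1 lower, with the log2 fold change -1.34 ± 0.18 (SE) and an edgeR adjusted p of 9.55e-05. C1qa was higher by 4.35 ± 1.03 (SE; edgeR adjusted p = 0.0186), C1qc by 4.40 ± 1.10 (SE; edgeR adjusted p = 0.0264) and C4b by 8.01 ± 1.75 (SE; edgeR adjusted p = 0.0101). Without general normal replicate 2 the C1qa value was 6.30, and that of C1qc reached 5.98 over the fits that left out a library. The calls of C1qb and C5ar1 held in 12 of 12 fits that left out a library. That of C1qa was lost without general metastatic replicate 2 (edgeR adjusted p = 0.0567) and that of C4b without niche metastatic replicate 1 (0.0517). That of C1qc was lost in 5 fits, those without general normal replicate 1 or 2 (0.0689 and 0.0669), general metastatic replicate 2 or 3 (0.0578 and 0.0781) or niche metastatic replicate 1 (0.0691). C3 was not called by edgeR, with the log2 fold change -0.54 ± 0.16 (SE) and an edgeR adjusted p of 0.0619, but was called lower by DESeq2 (adjusted p = 0.00995) and limma-voom (adjusted p = 0.0211). EdgeR called it without niche normal library C (adjusted p = 0.0450) and with at least 10 counts required in every library (adjusted p = 0.0125).

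Metastatic and normal marrow were then compared within each sort, to ask whether metastasis goes with a change of complement transcripts. EdgeR called no member in either, and DESeq2 called Cfb in niche macrophages. In general macrophages 0 of 9 members were called by edgeR (0.0155% of all genes called), DESeq2 (1.19%) or limma-voom (0.179%), and 0 of 9 had an unadjusted p under 0.05 by edgeR (5.12% of all genes). No member separated the libraries of the marrow states there, as 7.27% of all genes did upward and 5.64% downward. C5ar1 had the smallest p, with means of 797 ± 65.5 CPM in normal and 572 ± 151 CPM in metastatic marrow (SD, n = 3 each), a log2 difference of -0.48 ± 0.25 (SE; edgeR adjusted p = 0.946) with overlapping libraries. In niche macrophages edgeR and limma-voom again called 0 of 9 members (0.00776% and 0.0854% of all genes) and DESeq2 called Cfb (8.06% of genes; adjusted p = 0.0319). By edgeR, 1 member, Cfb, had an unadjusted p under 0.05 there (12.7% of all genes; edgeR adjusted p = 0.381). Cfb went from no count in 3 libraries to 342, 15 and 60 counts, at least 34.8-fold higher over a floor of 3 counts per library, with 342 of the 417 counts in 1 library. It was the only member whose niche libraries from the 2 marrow states did not overlap, as 5.63% of all genes did in that direction and 7.11% in the other.

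The C1q sum was lower in niche macrophages from metastatic than from normal marrow in its mean, but the ranges of 193 to 355 and 242 to 579 CPM overlapped. C1qa had a log2 difference of -1.18 ± 1.29, C1qb of -0.78 ± 0.76 and C1qc of -0.25 ± 1.35 (SE; edgeR adjusted p = 0.833, 0.782 and 0.989). C5ar1 had a log2 difference of -0.03 ± 0.25 and C3 of 0.26 ± 0.23 (SE; edgeR adjusted p = 0.993 and 0.728). For C3 and C5ar1 the standard errors are small, whereas those of C1qa, C1qc and C4b are above 1 on the log2 scale, so that differences of several-fold would not be detectable at this spread. The median log2 difference of the members was 0.41 in general and -0.03 in niche macrophages, beside -0.01 and -0.17 over all genes. Averaged over both sorts, edgeR called 0 of 9 members (0.0543% of all genes, 0.0466% lower), with 1, Cfb, at an unadjusted p under 0.05 (10.5% of all genes), and DESeq2 and limma-voom called none (4.99% and 0.0854% of genes).

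**Figure D4:**
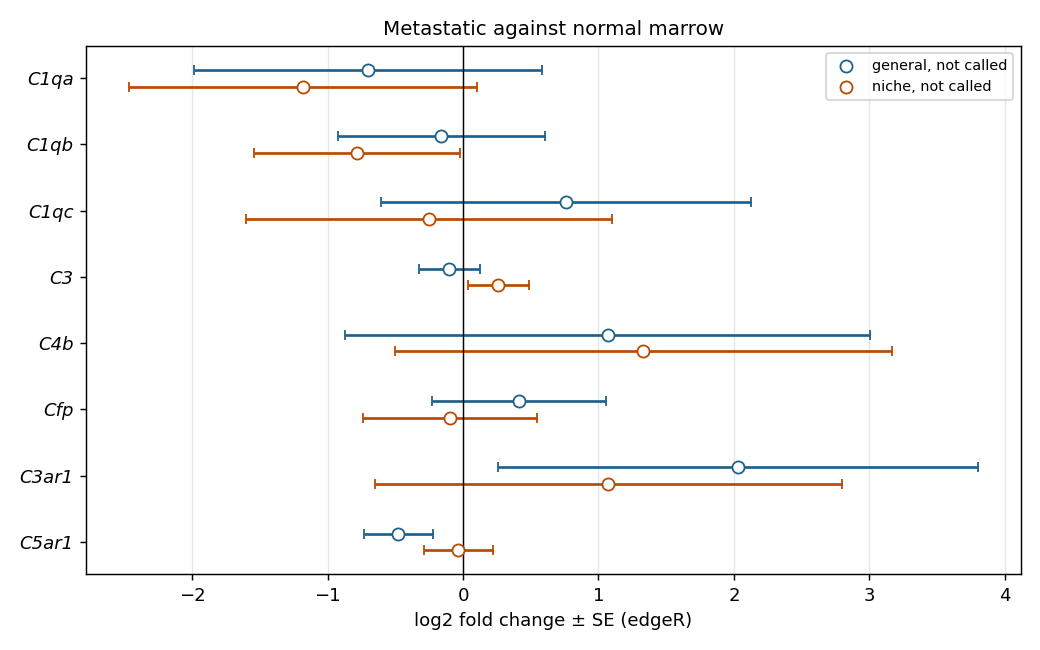
Log2 fold changes of metastatic against normal marrow with standard errors (horizontal axis) for 8 complement transcripts (vertical axis), in general and niche macrophages; open points did not pass an edgeR adjusted p of 0.05. None of these 8 passed, and the narrowest intervals are those of C3 (-0.10 and 0.26) and C5ar1 (-0.48 and -0.03). Cfb, called by DESeq2 in niche macrophages (adjusted p = 0.0319), is left out because all 3 niche libraries from normal marrow had no count.

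The metastasis effect was also compared between the sorts. EdgeR called 0 of 9 members for this difference (0% of all genes), as did limma-voom (0%) and DESeq2 (3.46%), and no member had an unadjusted p under 0.05 by edgeR (7.89% of all genes). The log2 difference was -0.62 ± 1.08 for C1qb, 0.44 ± 0.36 for C5ar1 and 0.36 ± 0.32 for C3 (SE; edgeR adjusted p = 0.988, 0.813 and 0.848).

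Levels were set side by side per kb of the longest annotated transcript. In general macrophages from normal marrow C5ar1 was highest at 314 ± 25.8 CPM per kb (SD, n = 3), followed by C3 at 138 ± 13.6 and Cfp at 24.5 ± 14.4 CPM per kb. The ranges of mean ± SD of these 3 did not overlap. From Cfp downward neighbouring ranges did, with C1qb at 8.60 ± 4.29, C1qa at 4.55 ± 7.37 and C1qc at 2.41 ± 3.71 CPM per kb, and Cfb, C3ar1 and C4b at 1.03, 0.600 and 0.0104 CPM per kb. In niche macrophages from normal marrow C1qb led at 199 ± 110 CPM per kb (SD, n = 3), with C1qa at 110 ± 38.5, C5ar1 at 106 ± 28.4, C3 at 83.6 ± 13.6 and C1qc at 72.5 ± 62.1 CPM per kb, and the ranges of these 5 overlapped. Cfp was at 46.1 ± 27.2 CPM per kb, a range that overlapped those of C1qa, C3 and C1qc. C3ar1 was at 5.54 ± 9.54 and C4b at 2.74 ± 3.49 CPM per kb, and Cfb had no count. In general macrophages from metastatic marrow C5ar1 (225 ± 59.6), C3 (129 ± 12.5) and Cfp (32.7 ± 9.82 CPM per kb) led in the same order without overlap of these ranges. In niche macrophages from metastatic marrow C1qb (116 ± 36.4), C5ar1 (103 ± 7.28) and C3 (100.2 ± 19.4 CPM per kb) led with overlapping ranges, followed by C1qc (60.9), C1qa (48.4), Cfp (43.1), C3ar1 (11.7), C4b (6.90) and Cfb (2.44 CPM per kb). The order of C3 and C5ar1 rests on the transcript taken: it turns over on the shortest protein-coding transcripts, of 315 and 674 bases, from that on the longest, of 5136 and 2540 bases. On the shortest ones C3 and C5ar1 also exceed C1qb in niche macrophages of both marrow states, so the first place of C1qb rests on this choice too.

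The other complement genes were taken from a list of 46, of which 26 had a row and 16 were tested. In niche against general macrophages, 1 of 16 was called higher and 1 lower in normal marrow, and 1 was called higher in metastatic marrow, against the 2.47% and 0.831% of all genes above. Of 4 tested recognition proteins and proteases, Fcna was called in both states. Fcna encodes ficolin A, a lectin that activates complement through associated proteases. It was at 0.343, 6.94 and 0.450 CPM in the general libraries of normal marrow and at 168, 109 and 204 CPM in the niche libraries. Libraries of metastatic marrow had it at 0.328, 1.81 and 0.293 CPM in the general and at 181, 26.5 and 65.2 CPM in the niche libraries. The libraries did not overlap, with log2 fold changes of 5.95 ± 1.17 and 6.82 ± 1.22 (SE; edgeR adjusted p = 0.00739 and 0.00554), and both calls held in 12 of 12 fits that left out a library. Over these fits the log2 fold change ran from 5.45 to 8.63 in normal and from 5.82 to 8.16 in metastatic marrow. DESeq2 called Fcna in both states and limma-voom in normal marrow only. Fcnb, the ficolin of neutrophils and monocytes, had log2 fold changes of -1.16 and 0.50 and was not called (edgeR adjusted p = 0.225 and 1).

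Of 9 tested receptors, Itgb2 was called lower in normal marrow by edgeR. Itgb2 encodes the common chain of the complement receptors CR3 and CR4, and Itgam the CD11b chain of CR3, itself an antigen of the general sort. Itgb2 was at 501, 494 and 339 CPM in the general libraries of normal marrow and at 188, 206 and 182 CPM in the niche libraries, with the log2 fold change -1.22 ± 0.26 (SE) and an edgeR adjusted p of 0.0131. The call was lost without general normal replicate 1 or 2 (edgeR adjusted p = 0.0820 and 0.0785), and limma-voom did not make it. In metastatic marrow the groups overlapped (log2 fold change -0.19 ± 0.25 SE, edgeR adjusted p = 1). The change of the Itgb2 effect between marrow states, 1.02 ± 0.36 on the log2 scale, did not pass (edgeR adjusted p = 0.473). Itgam had log2 fold changes of -0.87 and -0.34 and was not called (edgeR adjusted p = 0.0983 and 0.974). Lrp1, an endocytic receptor that takes part in uptake of C1q-tagged cells, was called by edgeR in the averaged comparison and in neither marrow state alone, with the log2 fold change 1.49 ± 0.36 (SE) and an edgeR adjusted p of 0.0200, a call lost without general metastatic replicate 2 (0.0662) or niche metastatic replicate 1 (0.0704). In the same comparison Fcna was higher and Itgb2 lower (log2 fold changes 6.38 and -0.70, edgeR adjusted p = 7.29e-05 and 0.0310), and the Itgb2 call was kept in 4 of 12 fits that left out a library. The 3 tested membrane regulators, which protect cells from complement (Cd55, Cd46 and Cr1l), were not called by edgeR in any comparison. Vsig4, a macrophage receptor for C3 fragments, had no row in the counts used here and was not analysed. In the metastasis comparisons edgeR, DESeq2 and limma-voom called 0 of the 16 in either sort or for the difference between sorts, and by edgeR 1, 3 and 3 of them had an unadjusted p under 0.05 (5.12%, 12.7% and 7.89% of all genes). By DESeq2, 7 of the 16 were called between the sorts in normal marrow (Calr, Cr2, Fcna, Itgam, Itgax, Itgb2 and Lrp1), where it called 15.4% of all genes, and 2 in metastatic marrow (Cr2 and Fcna), where it called 4.05%. The Cr2 call in metastatic marrow rests on niche metastatic replicate 3, with 1030 counts beside 2 and 2 in the other niche libraries, and the groups overlapped. Cr2 encodes a complement receptor of B cells, whose markers, given above, were also higher in the niche libraries, and their part was not tested.

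**Figure D5:**
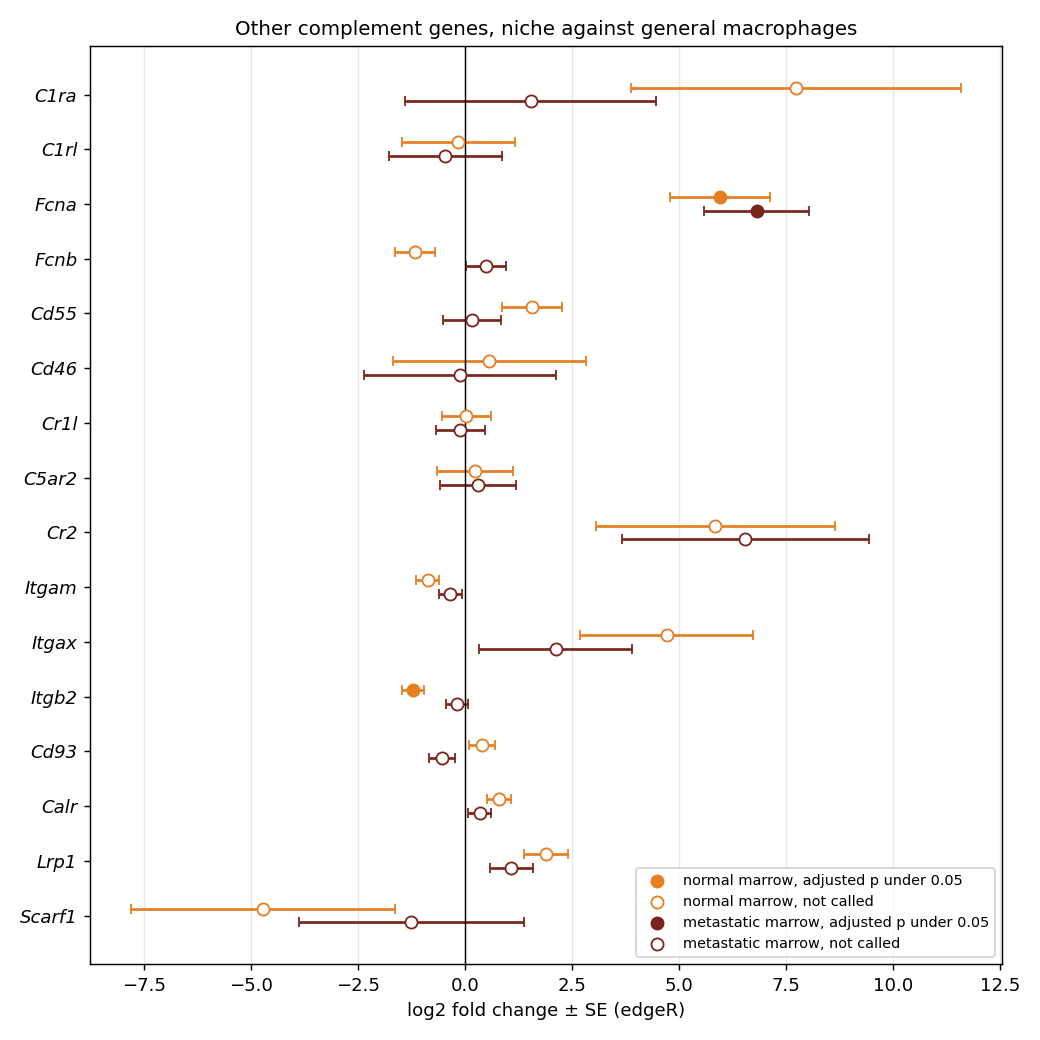
Log2 fold changes of niche against general macrophages with standard errors (horizontal axis) for the 16 tested genes of the wider complement list (vertical axis), in normal and metastatic marrow. Filled points passed an edgeR adjusted p of 0.05, namely Fcna in both states (5.95 and 6.82) and Itgb2 in normal marrow (-1.22); fitted values of C1ra, Cr2 and Scarf1 rest on libraries at or near 0 counts and are no bounds.

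As a description, the genes whose log2 CPM followed the mean of the C1q chains most closely over the 12 libraries were Axl, Slc4a1, Hivep2, Mrc1 and E230029C05Rik, with Pearson r between 0.941 and 0.955 among 8142 genes. Axl, a receptor for bridged apoptotic cells, was at 17.9 and 29.6 CPM in general and at 1317 and 626 CPM in niche macrophages (means from normal and metastatic marrow). Slc4a1 encodes the band 3 anion exchanger of red cells and was at 0.472 and 2.89 CPM in the general and at 214 and 197 CPM in the niche libraries. Closest to C5ar1 were Nadk, Cmtm6, Cbl, Ly6a2 and Atp6v1b2, with r between 0.922 and 0.943, and closest to Cfp were Uhrf1bp1, Adap2os, Adi1, Pecam1 and Grb10, with r between 0.855 and 0.886. The libraries differ in sort, marrow state and depth, which these correlations do not separate, and no p is given.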

How the data were processed

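RNA-seq was analysed from 12 libraries of sorted marrow macrophages, 3 in each of 4 groups. The authors deposited expected counts per gene symbol, not normalized (18467 rows). The unit was named from the values: library totals differ and 73.9% of values are exactly whole, with no tolerance, the others being fractional. Per the submitters' processing notes, STAR 2.7.3a, Partek, DESeq2 1.40.2, R 4.3.1 and build mm10 were used, with no roles given. The counting program, annotation and strandedness were not given in the sources used here. Per the labels' protocols, RNA was depleted of ribosomal RNA before library preparation. Niche libraries from normal marrow carry replicate numbers in the table that differ from their titles, and are called A, B and C.

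Counts were rounded, filtered with filterByExpr (12882 genes kept) and scaled by trimmed mean of M values. EdgeR 4.0.16 (R 4.3.3) modelled them as 4 group means over 12 libraries, with quasi-likelihood tests and Benjamini-Hochberg adjustment over all tested genes. A gene was called at an adjusted p under 0.05. The standard error of a log2 fold change was derived from the F statistic. Alternatives were another scaling, other filters, DESeq2 1.42.0, limma-voom with quality weights (limma 3.58.1), fewer libraries, a replicate block and leaving out each library. The procedure was also run on simulated counts with changes set in well-detected genes only. That run does not cover members near the floor.

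The members and lists were chosen with earlier results of these data known. Named genes are all 9 members, the listed complement genes called in any comparison, Itgam, Itgb2 and Vsig4, and for C1q, Cfp and C5ar1 the 5 genes with the highest correlation among those of at least 10 CPM on average. Fcnb, C5ar2, the regulators, genes called by DESeq2 alone and genes named for figure values were added for context after their values were seen. Gene positions and transcript lengths come from GENCODE M21, and 6 of 9 members had a RefSeq promoter window. Replicates were compared by chi-square over genes; the statistic per degree of freedom ran from 139 to 411, far above sampling noise for each pair. Same-numbered libraries did not deviate together (correlations of deviations from group means between -0.01 and 0.03), so no pairing was assumed. A withheld item of the wider complement list is not reported here.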

Additional observations from a re-analysis of the deposited data

How the results depend on the processing

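Across the 7 comparisons and 9 members, settings other than leaving out a library gave the same direction and side of the threshold in 311 of 342 cases, and fits that left out a library in 693 of 756. The cause of the changes below was not tested. Comparisons are named niche against general (NG) and metastatic against normal (MN). With DESeq2, 6 members and 1825 genes were called for NG in normal marrow, 5 and 480 for NG in metastatic marrow, 141 genes for MN in general and 1 member and 954 genes for MN in niche macrophages, 410 genes for the difference of the MN effects, 1670 for averaged NG and 591 for averaged MN, against 318, 107, 2, 1, 0, 542 and 7 genes by edgeR. With limma-voom, 1 member and 186 genes were called for NG in normal marrow, 178 genes for NG in metastatic marrow, 23 and 11 for MN in general and niche macrophages and 11 for averaged MN. Under limma-voom the MN log2 difference in niche macrophages turned to 1.83 for C1qc and 0.11 for Cfp, and the difference of MN effects to 0.25 for C1qb, 0.60 for C1qc and 2.11 for C3ar1. With DESeq2's size factors in edgeR, 1 member (C1qb) was called for NG in metastatic marrow and 0 genes for MN in niche macrophages. With at least 10 counts in every library, C1q, C4b, Cfb and C3ar1 were no longer tested. Of the 3 members left, 1 (C5ar1) was called for NG in metastatic marrow, 2 (C3 and C5ar1) for NG in normal marrow and for averaged NG, and 3 genes for MN in niche macrophages, where Cfp turned to 0.13 and C5ar1 to 0.17. With no filter, 5, 3 and 12 genes were called for MN in general, in niche macrophages and averaged. With only the 6 libraries of a comparison, 163 genes were called for NG in normal marrow, 1 member (C4b) for NG in metastatic marrow and 0 genes for MN in niche macrophages, where Cfp turned to 0.041 and C5ar1 to 0.11.

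The replicate block, fitted over the 9 libraries of 3 groups with shared numbers, called 2 members for NG in metastatic marrow (117 genes) and 0 for MN in general macrophages (3 genes). The same 9 libraries with no replicate block, added after the data were examined, called 1 member (C5ar1) and 104 genes for NG in metastatic marrow. The block turned Cfb from 0.09 to -0.42 in NG in metastatic marrow. The libraries share only a number.

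Leaving out a library gave between 176 and 402 called genes for NG in normal marrow, 66 and 121 genes (0 to 2 members) for NG in metastatic marrow, 0 and 4 for MN in general, 0 and 66 for MN in niche macrophages, 0 and 16 for the difference of MN effects, 331 and 640 genes (3 to 6 members) for averaged NG and 5 and 48 for averaged MN. The 66 and 16 genes came without niche normal library B. Log2 values changed sign for C3ar1 in NG in normal marrow (-4.04 to 5.15) and averaged NG (-0.90 to 3.70), and for Cfb in NG in metastatic marrow (-2.13 to 1.29). In MN in general macrophages they did so for C1qa (-3.63 to 3.19), C1qb (-0.96 to 0.40), C1qc (-0.17 to 3.92) and Cfb (-0.074 to 7.35), and in niche macrophages for C1qc (-0.84 to 0.20), Cfp (-0.50 to 0.36) and C5ar1 (-0.22 to 0.18). In averaged MN they did so for C1qa (-2.36 to 1.00), C1qc (-0.21 to 1.83), C3 (-0.0050 to 0.15) and Cfp (-0.040 to 0.42), and in the difference of MN effects for C1qa (-4.38 to 2.54), C1qb (-1.19 to 0.17), C4b (-0.67 to 2.07) and C3ar1 (-2.91 to 6.29).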
